A study of Equus caballus with 20 samples.

Results

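The longissimus lumborum, the long muscle of the back, was compared between French Trotters with recurrent exertional rhabdomyolysis (RER) and control horses. The comparison held 10 of the 20 arrays of the series, those whose label named this muscle, and these came from 5 RER horses with 2 arrays each. On each array, RNA of 1 RER horse in one fluorescent dye was hybridised together with RNA pooled from the longissimus of sound control horses in the other dye, and the dyes were exchanged on the second array of that horse. The series drew biopsies from 15 French Trotters, 5 with RER and high plasma activities of muscle enzymes and 10 controls, and treated the gluteus medius of the hindquarter in the same way against a pool of its own. The labels gave no genotype, age, training or drug treatment for either group, and no interval between an episode of muscle breakdown and the biopsy. The controls entered as a pool, which counts as 1 sample, so their own spread is part of no test below.

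In skeletal muscle, an action potential opens the ryanodine receptor of the sarcoplasmic reticulum, and calcium held there on calsequestrin flows to the troponin of the thin filament. The SERCA pump returns it to the store at the cost of ATP, which glycolysis and the mitochondria supply. In rhabdomyolysis the fibres break down and release their enzymes into the blood, and calcium release and energy supply are the processes most often examined in it. Fast and slow fibres, both present in this muscle, use their own forms of myosin, troponin and calcium pump.

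The measured quantity was the log2 ratio of the 2 channels, as deposited by the authors, so a value of 1 is a 2-fold difference. RER over control pool is the likely reading of the sign, since the labels list the RER sample as channel 1 throughout, but they do not state the direction. With every sign turned, all values below keep their size and the words above and below 0 change places. Ratios carry no expression level, so the tissue could not be checked through marker levels. Of the marker lists for muscle fibres, 9 of the 14 fast fibre genes on the array and 12 of the 14 slow fibre genes had ratios in at least 4 horses. The fast fibre genes without them included the myosins Myh1 and Myh4, troponin I (Tnni2) and parvalbumin (Pvalb).

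The 5 horses were not measured alike. The arrays of horses 1 and 2 each held between 23690 and 24050 values for 24493 probes and are called dense here, while those of horses 3, 4 and 5 held between 8966 and 14162 and are called sparse. The 2 arrays of a horse should give the same sign when the dyes are exchanged. Across probes they correlated at -0.269 in horse 1, -0.322 in horse 2, 0.452 in horse 3, 0.849 in horse 4 and 0.440 in horse 5. By rank (Spearman) the values were -0.282, -0.356, 0.182, 0.811 and 0.412, so the pair of horse 3 matched less well by rank. Ratios beyond 2-fold in either direction made up 5.38% of the features (genes, or probes without a symbol) of horse 1, 0.620% in horse 2, 1.43% in horse 3, 17.5% in horse 4 and 1.10% in horse 5. Between horses, the averaged ratios of horses 1 and 2 correlated at -0.599 across tested features, horses 1 and 4 at 0.318, and the other 8 pairs of horses between -0.219 and 0.197. Arrays of the same dye orientation did not oppose each other in this way. Across probes, horses 1 and 2 correlated at 0.330 on the arrays with RER RNA in Cy3 and at 0.192 on those with it in Cy5. Over all 10 pairs of horses the range was -0.021 to 0.330 in Cy3 and -0.049 to 0.435 in Cy5. These correlations are across probes or features of shared arrays and describe the data only.

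**Figure D1:**
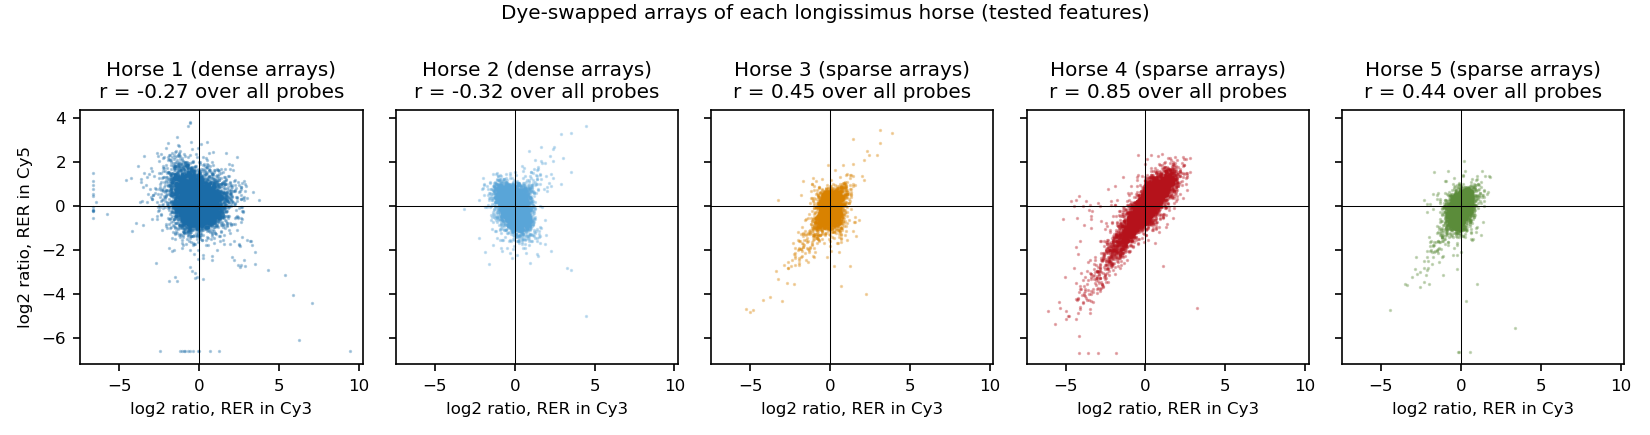
Log2 ratio on the array with RER RNA in Cy3 (horizontal axis) against the log2 ratio on the dye-swapped array (vertical axis), 1 panel for each longissimus horse and 1 point for each tested probe or gene. Points of horses 3, 4 and 5 lie along the rising diagonal, with the widest spread in horse 4, and those of horses 1 and 2 lean the other way.

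The probes also differed between the array groups. Gene symbols on the array are written in capitals for 206 probes and in the mouse style for most others, and 0 of the 206 capital probes had a value on any array of horses 1 and 2. Where a gene had probes of both spellings, their ratios in a horse correlated at 0.134 over 87 genes in horse 3, 0.140 over 66 genes in horse 4 and 0.148 over 96 genes in horse 5. The pair of probes had the same sign for 49, 39 and 48 of those genes, in that order. Probes of a gene were averaged, and 201 of the 6387 tested genes include a probe with no value on any dense array. Their ratios can rest on other probes in horses 1 and 2 than in horses 3 to 5. Of the tested genes below in this count, Aldoa, Anxa6, Idh2, Ldha, Pgm2, Scn4a, Slc25a3, Tpm1 and Ugp2 are given as the average over probes. Genes with probes blank on the sparse arrays only, such as Ryr1 and Phka1, are not in the 201, though their probes differ between horses too.

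**Figure D2:**
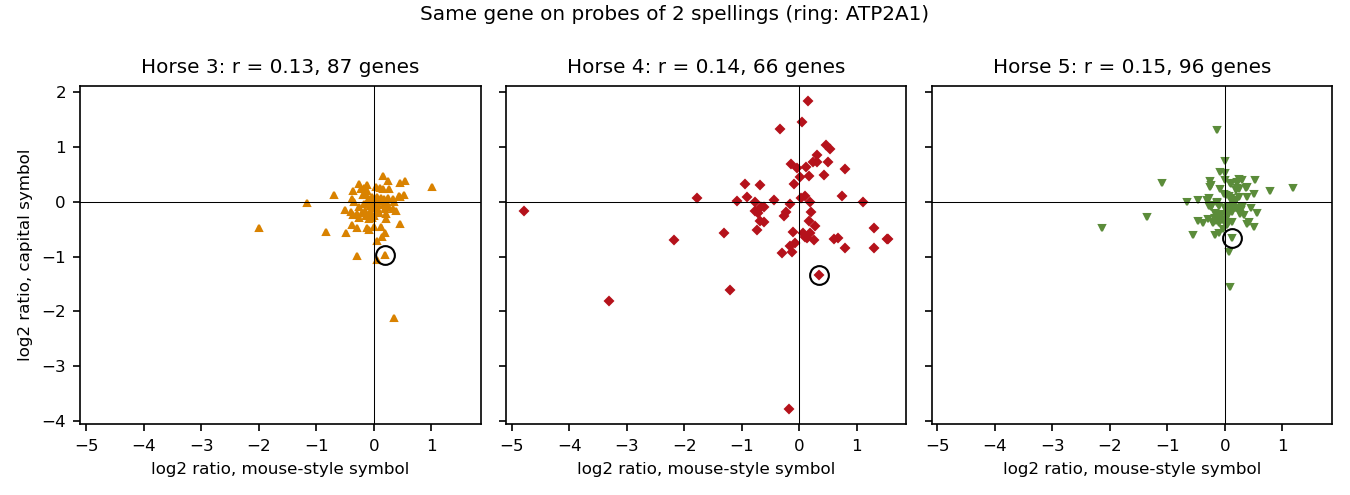
Log2 ratio of the capital-spelled probe (vertical axis) against that of the mouse-style probe or probes of the same gene (horizontal axis) in longissimus horses 3, 4 and 5, 1 point for each gene. The points spread over all 4 quadrants, and the ringed ATP2A1 probe lies below 0 in each horse while the mouse-style probe of that gene lies above 0.

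No gene of the longissimus differed from the control pool beyond the spread between horses after adjustment. The limma test with Benjamini-Hochberg adjustment over 10990 features (6387 genes and 4603 probes without a symbol) called 0 at an adjusted p under 0.05, which is 0% of them, with 0.993 as the lowest adjusted value. Without adjustment, 162 features had a p under 0.05, of which 42 lay above 0 (0.382%) and 120 below (1.09%). The median standard error was 0.130, and the 95% confidence interval lay within a 2-fold difference in either direction for 93.0% of the features, so a mean shift beyond 2-fold lay outside the interval for those features. A feature needed a ratio in at least 4 of the 5 horses. The genes named below are those with the smallest p among those of a single sign over the horses, members of gene lists with the smallest p, a panel of genes known from muscle breakdown, and the genes with the widest gaps, and none passed the test.

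Among genes below 0 in every horse, the smallest p belonged to Plcg2 and Sh3pxd2b. Plcg2 encodes phospholipase C gamma 2, a maker of the calcium-releasing messenger IP3 that is best known from blood cells. Its log2 ratios in horses 1 to 5 were -0.58, -0.17, -0.70, -0.58 and -0.76, with a mean of -0.56 ± 0.11 (SE, n = 5). The values of horses 1 and 2 came from the mouse-style probe and those of horses 3 to 5 from the capital one, so the 5 do not measure a single probe. Sh3pxd2b encodes a scaffold of podosomes, the actin-rich feet with which cells attach to matrix. It stood at -0.44, -0.26, -0.48, -0.93 and -0.79, a mean of -0.58 ± 0.12 (SE, n = 5), with horse 4 lowest and horse 2 nearest to 0. Features below 0 in every horse with a value numbered 336 of 10990 (3.06%), and those above 0 numbered 216 (1.97%).

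In horses 1 and 2 above all, the sign of a horse is often that of an average over arrays of opposite sign. Of the 552 features with 1 sign in every horse with a value, 509 had such a split pair of arrays in at least 1 horse, 348 of them in horse 1 and 363 in horse 2. Among the 15 genes of smallest p in each direction it was 17 of 30, with 15 split in horse 1, 7 in horse 2 and 0 in horse 4. The 13 without a split were Sh3pxd2b, Myl3, Chchd10, Shq1 and Nr2f6 below 0 and Pcbp1, Kbtbd8, Vps29, Meox2, Pnpt1, Dazap2, Lrrc3b and Ttll6 above 0. Of the list members given below with 1 sign in 5 of 5 horses, Pgm2, Ndufs8, Hrc, Cacna2d1 and Pgam2 had a split pair in 1 horse. Cox6b1, Rps14 and Prkcsh had it in horses 1 and 2, Lum and Hsd17b10 in 3 horses and Idh2 in 4.

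The slow muscle genes Myl3 and Tnnt1 stood among the 15 with the smallest p on the lower side. Myl3, the essential myosin light chain of slow fibres and of the heart ventricle, had ratios of -0.35, -0.39, -0.053, -0.74 and -0.25 and a mean of -0.36 ± 0.12 (SE, n = 5). Its 10 arrays ranged from -0.84 to -0.015, so no array of any horse was above 0. Tnnt1, the slow skeletal troponin T, was at -0.79, -0.37 and -0.20 in horses 1 to 3 and -0.39 in horse 5, a mean of -0.44 ± 0.13 (SE, n = 4), and had no ratio in horse 4. The other slow fibre genes lay on both sides of 0, as given with the list below.

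The other genes of the lower side had different roles. Mrpl12, a protein of the mitochondrial ribosome, was at -0.25, -0.36, -0.81, -0.46 and -1.28, a mean of -0.63 ± 0.16 (SE, n = 5), lowest in horse 5. Its arrays read -1.05 and 0.55 in horse 1 and -0.82 and 0.099 in horse 2, with opposite signs in each. Chchd10, a small protein of the mitochondrial intermembrane space whose human variants cause myopathy and motor neuron disease, lay at -0.17, -0.24, -0.15, -0.56 and -0.25. All its horses fell between -0.56 and -0.15, around a mean of -0.28 ± 0.096 (SE, n = 5). Rap1gds1, an exchange factor for small GTPases, had a mean of -0.39 ± 0.10 (SE, n = 5) and a range of -0.61 to -0.15. Shq1, which helps assemble the particles that modify ribosomal RNA, was at -0.31 ± 0.10 (SE, n = 5), Slain1, a microtubule end protein, at -0.41 ± 0.13 (SE, n = 5), and As3mt, an arsenic methyltransferase, at -0.36 ± 0.11 (SE, n = 4). Among them were also Pax2, a transcription factor of kidney development, at -0.53 and Onecut2, a transcription factor of liver and nerve cells, at -0.73.

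Of the 15 genes with the smallest p below 0, those with the largest means drew them unevenly from the animals. Pnma2, a neuronal antigen, was at -0.20, -0.40, -1.79, -2.03 and -2.11, so horses 3 to 5 lay near a 4-fold difference and horses 1 and 2 far from it. Rhbdl2, a membrane protease, gave -0.034, -0.51, -1.74, -1.44 and -1.73, and Nr2f6, an orphan nuclear receptor, -0.82, -0.25, -1.91, -2.57 and -0.23. The means were -1.30 ± 0.33 (SE, n = 5), -1.09 ± 0.28 (SE, n = 5) and -1.15 ± 0.37 (SE, n = 5). For Pnma2 and Rhbdl2 the split of high and low values was that between the dense and the sparse arrays. The kind of array and the horse cannot be told apart in this muscle, because each horse was measured on arrays of 1 kind.

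On the upper side, Pcbp1, Kbtbd8, Vps29 and Meox2 were among the 15 genes with the smallest p. Pcbp1, a protein that binds C-rich RNA and also delivers iron inside the cell, was at 0.44, 0.22, 0.64, 1.07 and 0.32, with a mean of 0.54 ± 0.14 (SE, n = 5). Kbtbd8, an adaptor of a ubiquitin ligase, was at 1.21 and 0.25 in horses 1 and 2 and 1.48 and 0.48 in horses 4 and 5, a mean of 0.86 ± 0.23 (SE, n = 4) that was the largest of the 15 genes on this side. Vps29, a subunit of the retromer that returns receptors from endosomes, was at 0.94, 0.31, 0.96 and 0.28 in the same 4 horses, a mean of 0.62 ± 0.17 (SE, n = 4). Horses 1 and 4 were high and horses 2 and 5 low for both. Meox2, a homeobox factor of limb muscle development, was at 0.50 ± 0.13 (SE, n = 4) and also lacked horse 3.

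Other genes of the upper side included some that act on RNA. The helicase Ddx5 was at 0.073, 0.22, 0.40, 0.53 and 1.02, a mean of 0.45 ± 0.15 (SE, n = 5), highest in horse 5 and nearest to 0 in horse 1. The spliceosome protein Prpf6 had a mean of 0.30 ± 0.10 (SE, n = 5), Hnrnpab, which binds nuclear RNA, 0.29 ± 0.095 (SE, n = 5), and Pnpt1, the mitochondrial polynucleotide phosphorylase, 0.31 ± 0.090 (SE, n = 5) with horses from 0.12 to 0.49. Dazap2 was at 0.48 ± 0.17 (SE, n = 5), with 1.26 in horse 4 and at most 0.36 in the others. Rnf11, a ubiquitin ligase subunit, ranged over 0.029 to 1.18 with a mean of 0.52 ± 0.17 (SE, n = 5). Arntl (Bmal1), the core activator of the circadian clock, was at 0.36, 0.36, 0.56 and 0.29 in its 4 horses, a mean of 0.39 ± 0.10 (SE, n = 4). The hour of the biopsies was not among the labels, so its part in the Arntl ratios was not tested. Rev3l, the catalytic subunit of a DNA polymerase that passes damaged bases, was at 0.45 ± 0.14 (SE, n = 4), Lrrc3b at 0.29 ± 0.089 (SE, n = 5), Ttll6 at 0.30 ± 0.10 (SE, n = 4) and the carboxylesterase Ces2 at 0.25 ± 0.085 (SE, n = 5).

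**Figure D3:**
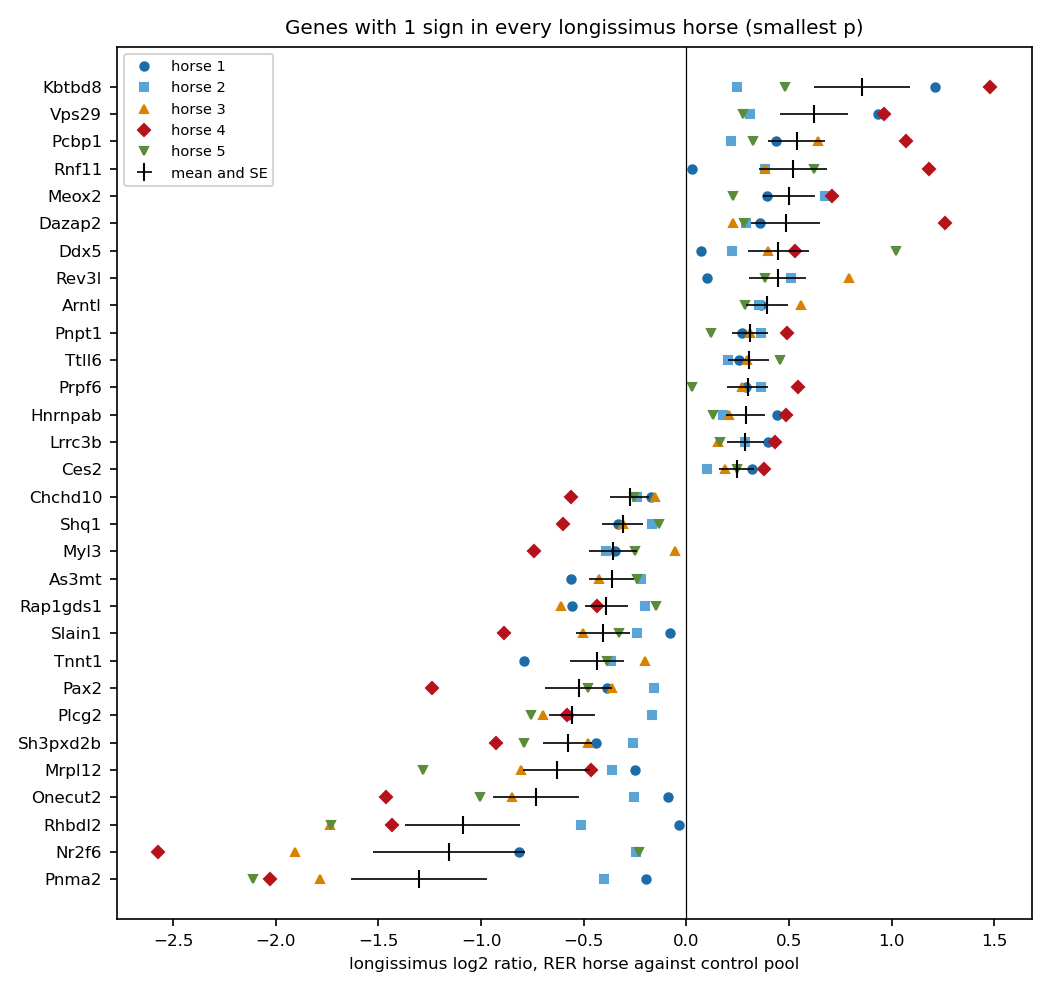
Longissimus log2 ratio of each horse (coloured symbols, mean of its 2 arrays) for the 30 genes with 1 sign in every horse with a value and the smallest p, 15 above and 15 below 0, ordered by mean; black bars give the mean and its standard error. Horse 4 is often farthest from 0, and horses 3 to 5 stand apart from horses 1 and 2 for Pnma2 and Rhbdl2.

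A stricter description asked for 1 sign on all 10 arrays. Of 7867 features with a ratio on each, 9 were above 0 on all 10 (0.114%) and 16 below (0.203%), and 15 of these 25 had a gene symbol. Below 0 were Nr2f6, Gabra4, Ndufb7, Sh3pxd2b, Sox3, Myl3, Shq1, Chchd10 and Tmem214, and above 0 were Hsd17b7, Lrrc3b, Pnpt1, Dazap2, Ssbp2 and Pcbp1. Ndufb7 is a subunit of complex I, the entry of the respiratory chain, and was at -0.31, -0.31, -0.15, -2.12 and -0.37. Ssbp2, a DNA-binding cofactor, was at 0.32, 0.27, 0.24, 1.51 and 0.17. In both, horse 4 was far from 0 and the other horses were close together, between -0.37 and -0.15 for Ndufb7 and between 0.17 and 0.32 for Ssbp2. Gabra4, a subunit of the GABA receptor of nerve cells, and Sox3, a transcription factor of the early nervous system, followed the same pattern at -2.26 and -1.68 in horse 4. Hsd17b7, an enzyme of cholesterol synthesis, and Tmem214 stayed nearer to 0 at 0.19 and -0.25.

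Genes of the fast fibre lay mostly below 0, through horses 1 and 4. Of 9 tested members, 8 had a mean below 0, where 51.2% of all features did, and 0 passed the test. The median of the member means was -0.40, against -0.0039 over all features, and it was -0.15 without horse 4. By horse the list medians were -0.52, 0.090, -0.033, -1.79 and 0.064, so horses 2, 3 and 5 were near 0. In a biopsy, fewer fibres of a type and less RNA in each fibre cannot be told apart.

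Several single fast fibre genes were lowest in horse 4, and Tnnc2, Actn3 and Tpm1 were also low in horse 1. Tnnc2, the fast troponin C that binds calcium, was at -1.73, 0.34, -0.033, -5.44 and 0.19. In horse 4 its arrays read -6.11 and -4.78 with the dyes exchanged, and the mean over horses was -1.34 ± 0.85 (SE, n = 5). Tnnt3, the fast troponin T, was at -0.32, 0.071, -0.32, -2.95 and -0.071, a mean of -0.72 ± 0.44 (SE, n = 5). Actn3, the alpha-actinin of the fast Z-disc, was at -0.81, 0.15, 0.32, -1.79 and 0.14, low in horses 1 and 4 and above 0 in the others. The tropomyosin Tpm1 was at -0.61, 0.026, 0.018, -2.0 and 0.32, and the fast light chain Myl1 had a mean of 0.0060.

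Slow fibre genes balanced around 0. Of 12 tested members 6 lay above and 6 below 0, with a median of 0.0035 and horse medians of -0.10, -0.19, 0.15, 0.29 and -0.085. Beside Myl3 and Tnnt1, the slow myosin heavy chain Myh7 was at -0.12, -0.011, 0.74, 0.29 and 0.17, a mean of 0.21 ± 0.14 (SE, n = 5). In horse 4 the members went far apart, with Tnnc1, the slow and cardiac troponin C, at -4.01, the regulatory light chain Myl2 at -3.86 and the slow calcium pump Atp2a2 at 1.86. The same 3 genes lay at 0.31, 0.45 and -0.11 in horse 5.

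The sarcomere scaffold was as balanced, with 12 of 23 members above 0 and a median of 0.0053. Neb, the nebulin ruler of the thin filament, was at 0.0039, 0.11, -0.54, -0.86 and -0.65, a mean of -0.39 ± 0.17 (SE, n = 5). Its 3 low horses are those on sparse arrays. Myom1, the myomesin of the M-band, was at -0.98, 0.16, 0.16, -2.56 and -0.18, low in horses 1 and 4. Acta1, the skeletal actin, was at -0.10, 0.095, 0.076, 0.47 and 0.82, highest in horse 5. Cfl2, the muscle cofilin that trims actin filaments, had a mean of 0.41 ± 0.23 (SE, n = 5), and Nrap, which helps build myofibrils, reached -5.15 in horse 4.

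**Figure D4:**
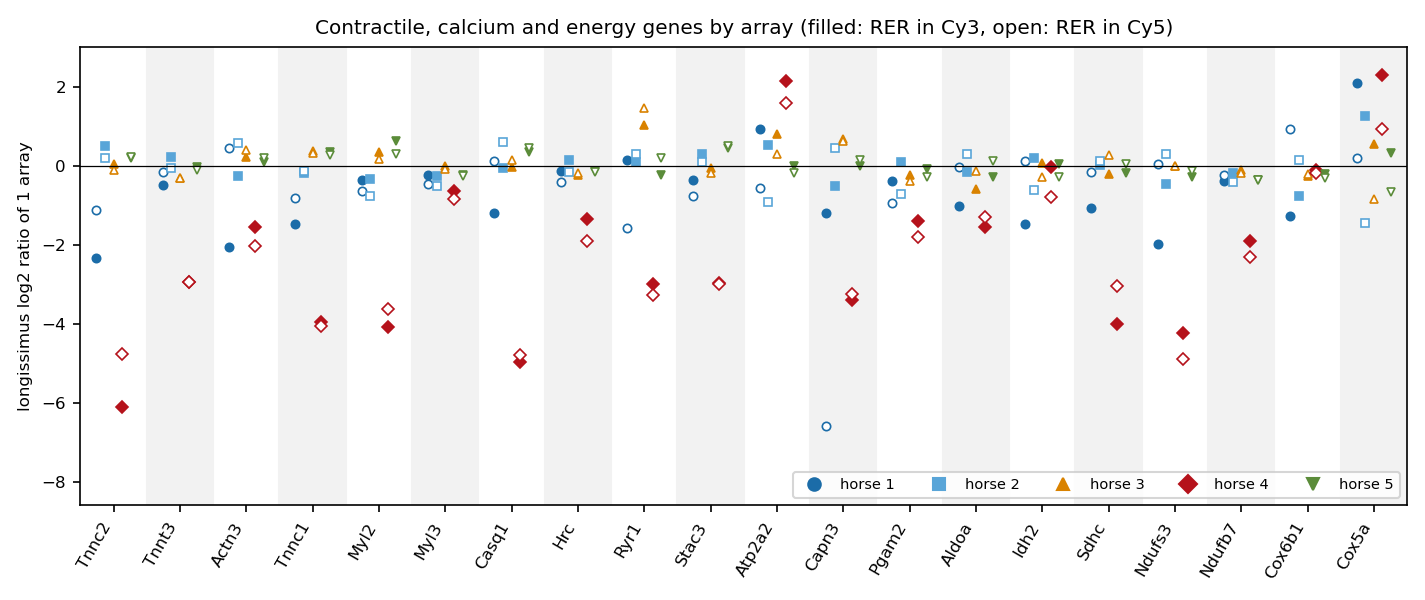
Longissimus log2 ratio of every array (vertical axis) for 20 genes of the sarcomere, calcium handling and energy supply; colour and shape give the horse, filled symbols have RER RNA in Cy3 and open symbols in Cy5. In horse 4 (red) both arrays are far below 0 for Tnnc2, Tnnc1, Myl2, Casq1, Ryr1 and Ndufs3, while the symbols of horses 2, 3 and 5 mostly lie within 1 unit of 0.

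Genes of the sarcoplasmic reticulum lay on both sides of 0. The list of calcium store and pump genes had 6 of 11 members above 0 and a median of 0.037, with horse medians of 0.031, -0.011, -0.0014, 0.36 and -0.11. Casq1, the calsequestrin of fast fibres, was at -0.53, 0.27, 0.060, -4.88 and 0.40, a mean of -0.94 ± 0.78 (SE, n = 5). The arrays of horse 4 read -4.96 and -4.80, and without that horse the mean was 0.047. Casq2, the slow and cardiac calsequestrin, was at 0.64, -0.26, 0.044, 0.58 and 0.22, a mean of 0.25 ± 0.15 (SE, n = 5). Hrc, a calcium-binding protein of the same lumen, was below 0 in 5 of 5 horses at -0.28, -0.0086, -0.21, -1.63 and -0.14, a mean of -0.45 ± 0.24 (SE, n = 5). For Calm2, one of the calmodulin genes, the mean was 0.22 ± 0.14 (SE, n = 5).

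The fast SERCA pump Atp2a1 gave opposite signs on its probes. The capital probe, measured in horses 3 to 5 only, read -0.97, -1.33 and -0.65. The mouse-style probe read 0.031, -0.079, 0.20, 0.34 and 0.12 in horses 1 to 5. Averaged, the gene stood at -0.24 ± 0.11 (SE, n = 5), and this mean combines a probe near or above 0 with a probe about 2-fold below it. How well either probe matches the horse transcript was not tested.

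The calcium release machinery had 9 of 15 members below 0 and a median of -0.063, with horse medians of -0.35, 0.13, 0.055, -0.11 and 0.098. Ryr1, the ryanodine receptor that releases calcium, was at -0.72, 0.20, 1.24, -3.14 and -0.015, a mean of -0.49 ± 0.57 (SE, n = 5). Horses 3 and 4 lay on opposite sides of 0 for it by over 2-fold each. In horses 1 and 2, Ryr1 averages a probe at -1.17 and 0.25 with another at -0.27 and 0.14. In horses 3 to 5 only the latter probe had a ratio. Stac3, which ties the voltage sensor to the receptor, was at -0.56, 0.19, -0.12, -2.99 and 0.48, a mean of -0.60 ± 0.49 (SE, n = 5). Jsrp1, a protein of the triad junction, was at -0.30 ± 0.20 (SE, n = 5), and Cacng1, the gamma subunit of the calcium channel, at -0.36 ± 0.30 (SE, n = 5), while Cacna2d1, another subunit of that channel, lay above 0 in 5 of 5 horses at 0.15, 0.11, 0.075, 0.37 and 0.098. The sodium channel Scn4a was at 1.95 in horse 1, from a single mouse-style probe, and between -0.39 and 0.047 in the others. The chloride channel Clcn1 was at 0.0082 ± 0.12 (SE, n = 5) and caveolin 3 (Cav3) at -0.074 ± 0.096 (SE, n = 4).

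Of the calcium signalling genes, 15 of 21 lay below 0 with a median of -0.031. Camk2b, a calmodulin-dependent kinase of muscle, was at 0.30 ± 0.14 (SE, n = 5), its relative Camk2d at 0.35 ± 0.25 (SE, n = 5) with 1.39 in horse 1, and Camk2g at -0.37 ± 0.26 (SE, n = 5). Capn3, the muscle calpain lost in a human limb-girdle dystrophy, was at -3.90, -0.042, 0.63, -3.33 and 0.072, a mean of -1.31 ± 0.74 (SE, n = 5). Its low value in horse 1 rests on 1 array at the lowest value of the table, with -1.20 and -6.60 on the pair. In horse 4 the arrays read -3.41 and -3.25.

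Glycolysis leaned below 0 with all horses but not without horse 4. Of 20 members 15 had a mean below 0, the median was -0.13 and the horse medians were -0.17, -0.0094, 0.017, -0.31 and 0.0069. With horse 4 left out, the median of the member means was 0.00052. Pgam2, the muscle phosphoglycerate mutase, was below 0 in 5 of 5 horses at -0.67, -0.32, -0.31, -1.61 and -0.19, a mean of -0.62 ± 0.22 (SE, n = 5). Aldoa, the muscle aldolase, was at -0.53, 0.067, -0.36, -1.44 and -0.088, a mean of -0.47 ± 0.22 (SE, n = 5). Fbp2, the muscle fructose bisphosphatase, which runs the opposite way, was at -0.26 ± 0.14 (SE, n = 5). Pfkm, the muscle phosphofructokinase, was at 0.29 ± 0.15 (SE, n = 5), and its mouse-style probe read 0.65, -0.33, 0.53, 1.11 and -0.089 in horses 1 to 5 while its capital probe read 0.12, -0.0017 and 0.55 in horses 3 to 5. Lactate dehydrogenase A (Ldha) was at 0.079 ± 0.12 (SE, n = 5).

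Glycogen genes had 9 of 16 members above 0 and a median of 0.031. Pgm2, a phosphoglucomutase, was above 0 in 5 of 5 horses at 0.94, 0.16, 0.018, 0.78 and 0.23, a mean of 0.42 ± 0.16 (SE, n = 5). Ugp2, which makes the glucose donor of glycogen, was at -0.96, 0.10, -0.13, -1.53 and 0.15, low in horses 1 and 4. The muscle phosphorylase Pygm was at 0.078 ± 0.17 (SE, n = 5), glycogen synthase Gys1 at -0.11 ± 0.14 (SE, n = 5) and the phosphorylase kinase subunit Phka1 at 0.17 ± 0.12 (SE, n = 5). Phka1 is an average over several probes, and some of these had no ratio in any of horses 3 to 5.

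The TCA cycle and the carriers of the mitochondrial membrane leaned below 0 as well. The list had 18 of 25 members below 0, a median of -0.11 and horse medians of -0.31, 0.072, 0.024, -0.54 and -0.063. Its median was -0.036 without horse 4. Idh2, the mitochondrial isocitrate dehydrogenase, was below 0 in 5 of 5 horses at -0.68, -0.22, -0.11, -0.42 and -0.13, a mean of -0.31 ± 0.11 (SE, n = 5). The probes behind it were not all the same in horses 1 and 2 as in horses 3 to 5. Sdhc, an anchor of succinate dehydrogenase, was at -0.62, 0.065, 0.024, -3.53 and -0.081, and Slc25a3, the phosphate carrier, at -1.01, 0.61, -0.12, -2.15 and -0.31. Both were low in horses 1 and 4 and above 0 in horse 2.

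The respiratory chain split in 2 directions within horse 4. Of 40 tested subunits 22 lay above 0 with a median of 0.041, and the horse medians were -0.18, 0.017, -0.13, 0.47 and -0.079. Without horse 4 the median of the member means was -0.095. By single genes in horse 4, 11 of 39 measured subunits were above 1 and 6 below -1, where 6.96% and 10.5% of the tested features measured in that horse were. Ndufs3 of complex I was at -4.56 and Cox5a of complex IV at 1.61 there. Cox6b1, a small subunit of complex IV, was below 0 in 5 of 5 horses at -0.18, -0.32, -0.24, -0.15 and -0.27, a mean of -0.23 ± 0.080 (SE, n = 5), but its arrays in horse 1 read -1.28 and 0.92. Ndufs8 of complex I was below 0 in every horse too, at -0.15, -0.37, -0.16, -0.19 and -0.29, a mean of -0.23 ± 0.083 (SE, n = 5). Cox6c was at 0.42 ± 0.21 (SE, n = 5), with 1.34 in horse 4.

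Other mitochondrial genes lay around 0. The mitochondrial ribosome and import list had 33 members above and 33 below 0, and besides Mrpl12 and Pnpt1 its smallest p values belonged to Mrpl38 at -0.31 ± 0.12 (SE, n = 5) and the import subunit Timm50 at -0.26 ± 0.11 (SE, n = 5). Fatty acid oxidation had 13 of 22 members below 0 and a median of -0.036. Pnpla2, the lipase that opens fat droplets, was at -0.031, -0.30, 0.050, -1.90 and -0.49, Hsd17b10, a mitochondrial dehydrogenase, at -0.69, -0.062, -0.034, -2.12 and -0.15, and the short-chain dehydrogenase Acads at -0.012, 0.16, -0.051, 1.36 and 0.44. The carnitine enzyme Cpt2 completes the entry of fatty acids into mitochondria. In horses 1 and 2 it was read on the mouse-style probe at 0.21 and 0.10, and in horses 3 to 5 on the capital probe at -0.18, 1.34 and 0.14.

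Creatine and AMP kinase genes had 13 of 16 members below 0, a median of -0.096 and horse medians of -0.31, 0.011, -0.044, -0.42 and 0.079. Ak3, a mitochondrial adenylate kinase, was at -0.61, 0.072, -0.42, -1.52 and -0.45, a mean of -0.59 ± 0.22 (SE, n = 5), below 0 in 4 of 5 horses. Ckm, the muscle creatine kinase whose leak into plasma marks muscle breakdown, was at -0.74, -0.28, 0.46, -4.78 and 0.30 on its mouse-style probe. Its capital probe read 0.094, -0.17 and 0.41 in horses 3 to 5, so the value of horse 4 differed between probes by more than 4 log2 units. Slc6a8, the creatine transporter, was at -0.43, 0.0020, 0.016, -1.94 and 0.21, and myoglobin (Mb) at 0.028 ± 0.10 (SE, n = 5).

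**Figure D5:**
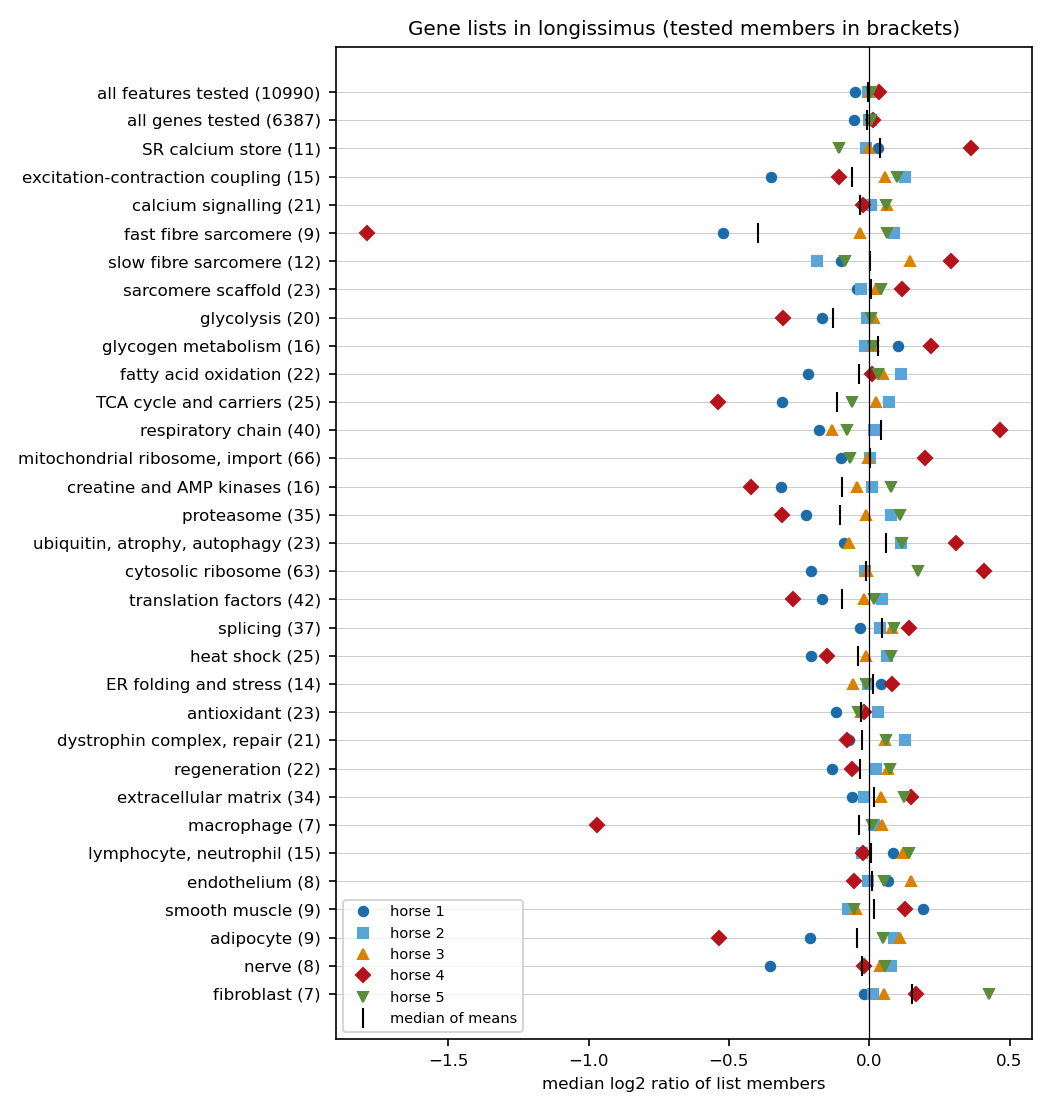
Median log2 ratio of the tested members of each gene list in each longissimus horse (coloured symbols) and the median of the member means (black bar), for lists with at least 5 tested members; the first 2 lines give all features and all genes. Medians lie between -0.19 and 0.13 in horse 2 and between -0.13 and 0.15 in horse 3, horse 5 reaches 0.43 for fibroblast genes, and the widest medians are those of horse 4 for fast fibre, macrophage, adipocyte and TCA cycle genes.

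Protein synthesis and turnover lists had medians between -0.10 and 0.060 over all horses and were wide in horse 4. Cytosolic ribosomal proteins had 30 of 63 members above 0, a median of -0.011 and horse medians of -0.21, -0.015, -0.0086, 0.41 and 0.17. In horse 4, 17 of 60 were above 1, Rpl38 at 1.65 among them, and 15 below -1, such as Rplp1 at -4.31. Over all tested features measured in that horse the shares were 6.96% above 1 and 10.5% below -1. Rps14 was below 0 in 5 of 5 horses with a mean of -0.21 ± 0.089 (SE, n = 5). Translation factors had 28 of 42 below 0 and a median of -0.096, with Eif5b, which joins the ribosomal subunits, at -0.59, 0.032, -0.59, -1.82 and -0.21. Splicing genes had 20 of 37 above 0 and a median of 0.044. Hnrnpl, a regulator of exon choice, was at 0.70, -0.21, 0.68, 0.83 and 0.31, and Magoh, part of the exon junction complex, at 0.43 ± 0.15 (SE, n = 4) without horse 3.

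Proteasome subunits had 21 of 35 members below 0, a median of -0.10 and horse medians of -0.23, 0.079, -0.012, -0.31 and 0.11. Psmd8 was at -0.46, 0.038, -0.63, -2.41 and -0.26, and Psmc3 at 0.57, -0.71, -2.61, -3.18 and 0.31, above 0 in horses 1 and 5. Ubiquitin, atrophy and autophagy genes had 14 of 23 above 0 and a median of 0.060. Atg3, which attaches the membrane tag of autophagosomes, was at 0.39, -0.011, 0.26, 1.02 and 0.26, the muscle ubiquitin ligase Trim63 (MuRF1) at 0.21 ± 0.12 (SE, n = 4), and its activator Foxo1 at 0.21 ± 0.12 (SE, n = 4).

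Stress lists showed no common direction. Heat shock genes had 16 of 25 below 0 with a median of -0.039, and the small chaperones of muscle were low in horses 1 and 4, with Hspb1 at -0.67, 0.23, 0.19, -2.22 and 0.51, Hspb2 at -0.74, 0.14, 0.0034, -2.19 and 0.18 and Hspb6 at -1.72, -0.080, -0.13, -0.65 and 0.078. Folding and stress genes of the endoplasmic reticulum had 8 of 14 above 0. Prkcsh, the beta subunit of glucosidase II, which trims sugars on new glycoproteins, was below 0 in 5 of 5 horses at -0.010, -0.056, -0.63, -1.56 and -1.09, a mean of -0.67 ± 0.24 (SE, n = 5). Antioxidant genes had 14 of 23 below 0 with a median of -0.030, and heme oxygenase (Hmox1) was at -0.18 ± 0.11 (SE, n = 5).

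Membrane, repair and matrix genes were likewise mixed. The dystrophin complex and repair list had 12 of 21 members below 0, with Anxa6, which caps membrane tears, at -0.45, 0.37, -1.24, -1.44 and 0.0086 and the laminin Lama2 at -0.29, 0.31, -0.14, -0.83 and -0.55. Regeneration genes had 13 of 22 below 0, with Dlk1 at -0.26 ± 0.11 (SE, n = 5) and the satellite cell factor Pax7 at 0.16 ± 0.099 (SE, n = 5). Extracellular matrix genes had 19 of 34 above 0 and a median of 0.017. Lum (lumican), a proteoglycan of collagen fibrils, was above 0 in 5 of 5 horses at 0.32, 0.15, 0.0088, 0.75 and 0.58, a mean of 0.36 ± 0.13 (SE, n = 5). Its arrays had opposite signs in horses 1 to 3, at 1.39 and -0.75, 0.92 and -0.63, and 0.32 and -0.30. Its capital probe read 0.23, 1.46 and 1.31 in horses 3 to 5, and its mouse-style probe 0.32, 0.15, -0.21, 0.041 and -0.14 in horses 1 to 5. Col4a1, a collagen of the basement membrane, was at 0.19 ± 0.090 (SE, n = 5) and Col1a2, a fibrillar collagen, at -0.20 ± 0.12 (SE, n = 5).

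Markers of other cells in the biopsy did not share a direction either. Means above 0 were found for 3 of 7 macrophage genes, 8 of 15 lymphocyte and neutrophil genes, 5 of 8 endothelial genes, 6 of 9 smooth muscle genes, 4 of 9 adipocyte genes, 3 of 8 nerve genes and 5 of 7 fibroblast genes. The medians lay between -0.044 and 0.15. The 2 erythrocyte genes Alas2 and Klf1 were at 0.059 and -0.099. In horse 4 the median was -0.97 over 5 measured macrophage genes, with Cd68 lowest at -1.93, and -0.54 over 5 adipocyte genes, with the fat cell factor Cebpa lowest at -2.14. In each of these lists 1 of the 5 genes lay above 0, at 0.57 for macrophage and 1.44 for adipocyte genes. The low medians stood beside the low fast fibre genes of that horse, and their part in each other's values was not tested.

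Horse 4 held the widest ratios of the comparison. Of 8062 tested features measured in it, 845 were below -1 (10.5%) and 561 above 1 (6.96%). The corresponding shares below and above were 1.61% and 1.95% in horse 1, 0.218% and 0.501% in horse 2, 1.12% and 0.221% in horse 3, and 0.943% and 0.156% in horse 5. By the gap to the nearest other horse, Actg2, the smooth muscle gamma actin, stood out at -5.52, GMP reductase (Gmpr) at -5.42 and Eef1a2, the elongation factor of muscle and nerve, at -4.93. The other horses lay between -0.60 and 0.54, -0.34 and 0.63, and 0.013 and 0.74 for these genes. The 2 arrays of horse 4 read -5.67 and -5.36 for Actg2, -4.16 and -6.68 for Gmpr, the second at the lowest value of the table, and -4.81 and -5.04 for Eef1a2. Slc12a7, a potassium-chloride cotransporter, was below 0 in 5 of 5 horses at -0.63, -0.062, -0.40, -5.05 and -0.11, its mean of -1.25 ± 0.74 (SE, n = 5) coming mostly from horse 4. Pfn2 (profilin 2) and Pstpip2, both of the actin skeleton, were the counterparts above 0. Pfn2 was at 0.42, 0.075, 0.27, 1.83 and 0.78, and Pstpip2 at 0.37, 0.082, 0.074, 1.81 and 0.49.

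Wide gaps in the other horses included some that rest on 1 array and some seen on both. In horse 1, Slc6a12 at -3.85 and Copb1 at -3.61 each rest on 1 array at the lowest value of the table, with -1.09 and -6.60 on the pair for Slc6a12, and -0.61 and -6.60 for Copb1. The same holds for Cep76 in horse 5, at -0.11 and -6.64. Irs4, an insulin receptor substrate, was at 1.66, -2.13, -2.29, -1.84 and -2.78, so horse 1 alone was above 0 and both its arrays were, at 2.19 and 1.13. Horse 2 alone was above 0 for Nisch at -0.87, 1.58, -1.12, -1.07 and -0.80 and for Syt3 at -0.94, 1.64, -1.14, -1.39 and -0.75. In horse 3, Aebp2, a cofactor of the Polycomb complex, and Thy1, a surface protein of fibroblasts and neurons, were high on both arrays, at 3.13 and 3.46 for Aebp2, and 2.41 and 2.31 for Thy1, and Foxo6 was low at -2.01. The lactate transporter Slc16a3 was at 1.12, -1.06, 0.79, 1.61 and -3.15 and Shkbp1 at 1.59, -1.04, 0.44, 2.16 and -3.14, each low in horses 2 and 5 and high in the other 3.

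Set against the gluteus medius of the same horses, no gene differed between muscles beyond the spread after adjustment. The limma contrast of longissimus minus gluteus called 0 of 10230 features (0%) with a lowest adjusted p of 0.9996, and 182 reached an unadjusted p under 0.05. The same contrast with the horse as a block, fitted to 10120 features, called 0 with a lowest adjusted p of 0.944 and gave 411 at an unadjusted p under 0.05. Each muscle had its own control pool, so a difference between the pools is part of every value. Within a horse, the ratios of the 2 muscles correlated across features at 0.535 in horse 1, -0.057 in horse 2, -0.022 in horse 3, 0.137 in horse 4 and 0.178 in horse 5.

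All longissimus horses lay above all gluteus horses for 32 of 5972 genes (0.536%), and all below for 19 (0.318%). Among the higher genes given here, Vps29 had the largest difference at 0.91 ± 0.20 (SE), with means of 0.62 in longissimus and -0.29 in gluteus. Its gluteus ratios in horses 1, 2, 3 and 5 were -0.47, -0.19, -0.41 and -0.080. The initiation helicase Eif4a2 and its partner Eif4h differed by 0.67 ± 0.15 (SE) and 0.57 ± 0.10 (SE), with longissimus means of 0.27 and 0.17. Calm2, Magoh and Wscd1 differed by 0.61 ± 0.15 (SE), 0.79 ± 0.19 (SE) and 0.72 ± 0.18 (SE). For these genes other than Vps29 and Magoh, most of the gap lay on the gluteus side, with gluteus means of -0.40 for Eif4a2, -0.41 for Eif4h, -0.40 for Calm2 and -0.59 for Wscd1.

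Genes whose longissimus horses all lay below the gluteus horses were Sh3pxd2b, with a difference of -0.50 ± 0.14 (SE), the volume-regulated channel subunit Lrrc8c at -0.46 ± 0.12 (SE), the insulin receptor adaptor Grb14 at -0.49 ± 0.17 (SE), Cnp at -0.33 ± 0.12 (SE), the neuropeptide gene Npff at -0.33 ± 0.10 (SE) and Myoz3, a Z-disc protein of fast fibres, at -0.32 ± 0.11 (SE). For Sh3pxd2b the longissimus mean was -0.58 and the gluteus mean -0.078. For Grb14 and Cnp most of the gap lay on the gluteus side. Their longissimus means were -0.081 and -0.035, and their gluteus means 0.40 and 0.30. The longissimus arrays of Grb14 in horse 1 read -1.36 and 1.78. Tnnt1 had a longissimus mean of -0.44 and a gluteus mean of 0.41, a difference of -0.84 ± 0.41 (SE), though its horses overlapped. A single sign in every horse of both muscles was seen for 3 genes above 0 (0.0502%), Kbtbd8, Aldh16a1 and Gsx2, and for 7 below 0 (0.117%), of which Sh3pxd2b, Dnase1l2, Pnkd, Ccdc32 and Mvk had the smallest p.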

How the data were processed

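The deposited values are log2 ratios for 24493 probes on 2-colour oligonucleotide arrays, already normalized by the authors in a way not given in the sources used here; the values show a log2 scale, since their floor of -6.6439 is a ratio of 0.01. Per the labels' protocols, RNA was extracted with TRIZOL and 5 µg were labelled through amino-allyl groups, with a dye swap for each sample. Gene symbols come from the platform annotation of the arrays, which gives 13692 probes a symbol and 10801 none. Background correction, scanner and the rule that left blanks were not given.

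Each array was centred on its median, probes of a symbol (case ignored) were averaged, and the 2 arrays of a horse were averaged where both had a value. Features with at least 4 of 5 horses entered limma 3.58.1 (lmFit with an intercept, eBayes; R 4.3.3, statmod 1.5.0), and p-values were adjusted after Benjamini-Hochberg, with calls at 0.05. The muscles were compared in 1 fit of horse values, without a block. The procedure was tested on simulated data. Standard errors are those of the moderated fit. The number of arrays limits the precision, and intensities were not used here. Same-numbered horses of the muscles are the same animals per the labels, and the deviations of a horse from the muscle means correlated between muscles at 0.577, 0.301, -0.101, 0.0194 and -0.00457 in horses 1 to 5.

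Genes named are the 15 of smallest p in each direction among genes of a single sign over the horses, up to 4 members of each list by p, a panel of 28 genes (25 on the array, 19 tested), 6 in each direction for the muscle difference among non-overlapping genes, the 5 largest means in each direction with 1 sign in 5 horses, 3 per horse by the widest gap, and 5 in each direction with 1 sign in both muscles. Some are left out for length, and the list members given for their value in horse 4, such as Nrap and Rplp1, were chosen after their values were seen, as were Actn3, Myl1, Gabra4, Sox3, Hsd17b7 and Tmem214. The members and lists were chosen with earlier results of these data known.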

Additional observations from a re-analysis of the deposited data

Results flagged for a closer look

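In 40 of the 154 tested genes named above, 1 horse stood farther from the nearest of the others, relative to the range over horses, than Dixon's 95% limit. Some of these genes, such as Actg2, Gmpr, Eef1a2, Copb1, Irs4, Nisch, Syt3, Thy1 and Cep76, were named for the widest gap of a horse, so their number is not to be read against chance. Chance flags about 1 in 20 groups of values, and 910 of 7867 features with all 5 horses (11.6%) passed the limit, 640 of them through horse 4 and 200 through horse 1. Horse 4 stood apart on the low side for Actg2 at -5.52, Cacng1 at -1.82, Casq1 at -4.88, Ccdc32 at -1.05, Cd68 at -1.93, Cebpa at -2.14, Chchd10 at -0.56, Eef1a2 at -4.93 and Gabra4 at -2.26. Also low in that horse were Gmpr at -5.42, Gys1 at -0.68, Hrc at -1.63, Jsrp1 at -1.23, Myl2 at -3.86, Ndufb7 at -2.12, Ndufs3 at -4.56, Nrap at -5.15 and Pnpla2 at -1.90. Also low in that horse were Psmd8 at -2.41, Rplp1 at -4.31, Sdhc at -3.53, Slc12a7 at -5.05, Sox3 at -1.68 and Tnnt3 at -2.95. Horse 4 was the high outlier for Cacna2d1 at 0.37, Cpt2 at 1.34, Dazap2 at 1.26, Pstpip2 at 1.81 and Ssbp2 at 1.51. Horse 1 stood apart on the low side for Alas2 at -0.17, Copb1 at -3.61 and Slc6a12 at -3.85. Horse 1 was the high outlier for Irs4 at 1.66 and Scn4a at 1.95. Horse 2 stood apart on the low side for Mvk at -0.88. Horse 2 was the high outlier for Nisch at 1.58 and Syt3 at 1.64. Horse 3 stood apart on the low side for Foxo6 at -2.01. Horse 3 was the high outlier for Thy1 at 2.36. Horse 5 stood apart on the low side for Cep76 at -3.38. Of 31 list medians, that of the macrophage genes was apart in horse 4 at -0.97, where the other horses lay between 0.011 and 0.045 and that of the nerve genes was apart in horse 1 at -0.35, where the other horses lay between -0.020 and 0.076. The difference between muscles was tested for 10230 features, 5972 of them genes, and gave no call.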

How the results depend on the processing

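In longissimus, 0 features were called under all but 2 of the alternatives tried. The Cy5 arrays alone called 2 features, Bmp8a and Rps6kc1, and both had the opposite sign on the Cy3 arrays. With both arrays of horse 2 turned, an alternative chosen after seeing the data, 2 probes without a symbol were called, both below 0, at a lowest adjusted p of 0.0349 in limma. Leaving out each horse in turn called 0 to 0 features, and the count at an unadjusted p under 0.05 ran from 70 without horse 5 to 430 without horse 2, beside 162 with all. That count was 50 with the dense arrays alone, 242 with the sparse arrays alone, 1058 with array weights, 1104 with the Cy3 arrays of pairs correlating below 0 turned, 1250 with the Cy3 arrays alone and 1560 with the Cy5 arrays alone. With both muscles in 1 fit it was 434 without and 454 with the horse as a replicate block, at 0 calls each. The paired muscle difference (replicate block) also called 0 features, so the block changed no call. Keeping symbols apart by case gave 156. Of 4631 gene values under alternatives 185 changed sign (3.99%), and of 558 list medians 91 did (16.3%), so signs of list medians near 0 depend on the setting. The share for genes is lowered by settings that cannot change a mean, such as no moderation or robust moderation, with 0 of 188 each. Most genes changed with the dense arrays alone, at 30 of 188. The Cy5 arrays alone gave 26, and array weights and the turned Cy3 arrays 25 each. The cause was not tested. Depth is unknown for these ratios, and blanks on the sparse arrays left 10990 of 22819 features testable.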

Other observations

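Probes that had values on all 6 arrays of horses 3, 4 and 5 and on none of horses 1 and 2 covered 202 genes. Their values on these probes alone came from too few horses for the test above, though other probes of some of the genes entered it. All 6 arrays were below 0 for 26 of these genes and above 0 for 9. The 3 horses were all below 0 for 46 and all above for 23. The same shares were not taken over all features of these 3 horses, so the counts are not read as a trait of these probes. The genes given here had 1 sign on all 6 arrays, and most also had mouse-style probes, given beside the capital ones. The lowest mean was that of PRKCA, protein kinase C alpha, a calcium-activated kinase, at -1.94, -3.18 and -1.12 in horses 3 to 5, while its mouse-style probes read 0.088 and 0.13 in horses 1 and 2. SLC2A2, a glucose transporter of liver and pancreas, was at -2.12, -2.37 and -1.56, where the mouse-style probes read 0.35 and 0.088 in horses 3 and 5. PDE4D, which degrades cyclic AMP, was at -0.99, -1.80 and -0.60, and its mouse-style probes were below 0 in these horses too, at -0.29, -3.31 and -0.55. SLC8A1, the sodium-calcium exchanger of the plasma membrane, was at -0.51, -0.35 and -0.36 against -0.079, 0.17 and -0.20 on mouse-style probes. The peroxidase PRDX1 was at -0.57, -0.84 and -0.48 against 0.20, 1.30 and -2.14, so its probes differed in sign in horses 3 and 4. Above 0 stood LUM, described with the matrix genes, the matrix receptor subunit ITGB1 and the leukocyte integrin ITGB2. ITGB1 was at 0.49, 0.99 and 0.53, and its mouse-style probes read -0.33 and 0.17 in horses 1 and 2. ITGB2 was at 0.24, 0.61 and 0.53 against 0.12, -0.043 and -0.0059. These genes were chosen after their values were seen, and the capital probes were not tested apart from the other probes of the gene.

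Genes encoded by the mitochondrial genome were measured in the same 3 horses only. ND3, ND5 and ND6, subunits of complex I, were below 0 in all 3. ND3 was at -0.46, -0.15 and -0.25, ND5 at -0.52, -0.90 and -0.19 and ND6 at -0.97, -0.84 and -0.32, and all their arrays were below 0. The other complex I subunits were not below 0 in all 3 horses. ND1 was at 0.0043, 0.75 and 0.13, ND2 at 0.010, 0.53 and -0.14, ND4 at 0.26, -0.82 and -0.13, and ND4L at 0.21, -2.78 and -0.42. CYTB of complex III was at 0.21, -0.029 and -0.36. In horse 4 single capital probes also lay far below 0, with the malate dehydrogenase MDH2 at -4.99 and the alpha-actinin ACTN2 at -3.78, where horses 3 and 5 had 0.32 and -0.23 for MDH2 and 0.046 and 0.15 for ACTN2. The mouse-style probe of ACTN2 read -0.19 in horse 4, so the probes of that gene did not give the same value.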
